A study of Mus musculus with 29 samples.

Results

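A set of 10 measured genes is known from the endothelium of the liver sinusoid, and its members were read in macrophages that were sorted from spleens and livers of Rnaset2-/- (KO) mice and their wild-type (WT) controls on the C57BL/6 background. The members were the rows of the deposited table whose symbol was Stab2, Lyve1, Clec4g, Oit3, Egfl7, Kdr, Flt1, Tek, Ptprb or Pecam1, and all 10 of these, of 23930 genes in all, were found. The KO mice lack both genes that encode RNase T2 in the mouse, Rnaset2a and Rnaset2b, in every cell. No mouse was treated, and the labels give no age. Splenic and hepatic CD11b+ cells negative for Ly6G, SiglecF and NK1.1 were split into a Ly6C-high gate and a Ly6C-low gate positive for Fcgr4, and Kupffer cells (KCs), the resident macrophages of the liver, were gated from WT livers as F4/80+, CD11b-intermediate, Tim4+ and PDCA-1-low. None of the gates in the labels names an endothelial surface protein. The study's methods also list a stain for CD45 in both organs, and give the KC gate as F4/80+ and CD11b-low without Tim4. The 9 groups held 3 libraries each, except KO spleen Ly6C-low and WT KC with 4 each, which gave 13 splenic and 16 hepatic libraries. The labels do not tie a library to an animal, so p-values measure the spread between libraries, which may be in part technical.

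Liver sinusoidal endothelial cells line the capillaries of the liver and form a fenestrated wall without a basement membrane. They clear macromolecules from portal blood through scavenger and lectin receptors, and Kupffer cells sit on their luminal side. Stab2 encodes stabilin-2, a scavenger and hyaluronan receptor, Lyve1 a hyaluronan receptor, Clec4g the lectin LSECtin, and Oit3 a zona pellucida domain protein. Kdr (VEGFR2) and Flt1 (VEGFR1) encode the receptors through which VEGF acts on endothelium, Tek the angiopoietin receptor TIE2, and Ptprb the phosphatase VE-PTP that restrains TIE2. Egfl7 encodes a secreted vessel protein, and Pecam1 encodes CD31, an adhesion molecule of endothelial junctions that leukocytes and platelets carry too.

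In GRCm38 (mm10), the build the labels name, the genes lie on 7 chromosomes by the GENCODE vM21 annotation. Stab2 spans chr10:86841198-87008025, Oit3 chr10:59422958-59441778 and Ptprb chr10:116275523-116389535. Kdr spans chr5:75932827-75978458 and Flt1 chr5:147561604-147726011. Lyve1 spans chr7:110850607-110863239, Clec4g chr8:3707064-3720651, Egfl7 chr2:26580014-26593120, Tek chr4:94739289-94874976 and Pecam1 chr11:106654217-106750628. One amplicon stood for each gene in the assay, so levels are compared between groups for 1 gene at a time and never between genes. The amplicon positions were not analysed here.

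The promoters of 4 members are shown because 3 of them (Stab2, Kdr and Tek) moved together across the groups described next and Flt1 did not. Each runs from 250 bases before to 50 bases after a transcription start in RefSeq (GRCm38.p6), 5′ to 3′ on the strand of the gene, and capitals mark the core of the ETS family of factors, GGAA, or its reverse complement TTCC.
Stab2 (chr10:87007893-87008192, minus strand): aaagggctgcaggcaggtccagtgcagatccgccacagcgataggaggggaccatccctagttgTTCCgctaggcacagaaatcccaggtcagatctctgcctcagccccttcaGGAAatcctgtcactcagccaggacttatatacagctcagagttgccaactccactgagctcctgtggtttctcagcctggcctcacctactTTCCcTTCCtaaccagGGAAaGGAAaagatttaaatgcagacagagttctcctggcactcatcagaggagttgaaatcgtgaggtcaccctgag
Kdr (chr5:75978406-75978705, minus strand): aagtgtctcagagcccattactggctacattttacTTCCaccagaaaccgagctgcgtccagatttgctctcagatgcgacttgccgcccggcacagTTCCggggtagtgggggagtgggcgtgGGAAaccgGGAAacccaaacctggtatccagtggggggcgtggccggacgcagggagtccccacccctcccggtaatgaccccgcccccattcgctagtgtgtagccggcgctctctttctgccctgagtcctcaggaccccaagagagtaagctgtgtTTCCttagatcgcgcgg
Tek (chr4:94739039-94739338, plus strand): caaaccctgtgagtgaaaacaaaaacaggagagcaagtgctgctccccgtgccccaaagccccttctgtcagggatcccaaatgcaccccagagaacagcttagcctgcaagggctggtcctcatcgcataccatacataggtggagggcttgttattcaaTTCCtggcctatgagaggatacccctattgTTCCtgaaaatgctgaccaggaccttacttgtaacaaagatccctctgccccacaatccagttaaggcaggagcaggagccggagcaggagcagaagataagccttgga
Flt1 (chr5:147725962-147726261, minus strand): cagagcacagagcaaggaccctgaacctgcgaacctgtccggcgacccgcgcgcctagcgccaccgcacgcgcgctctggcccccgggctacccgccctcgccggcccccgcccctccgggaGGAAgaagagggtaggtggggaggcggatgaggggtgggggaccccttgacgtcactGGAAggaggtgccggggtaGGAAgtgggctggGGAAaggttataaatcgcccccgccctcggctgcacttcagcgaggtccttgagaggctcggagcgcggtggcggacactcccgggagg
The ETS core occurred 6 times in the Stab2 window, 5 times in that of Kdr, 2 times in that of Tek and 4 times in that of Flt1. It also occurred in 96.0% of all 32851 promoter windows of this length, so its presence sets none of these apart. The table held 8 windows for 6 of the members (Stab2, Clec4g, Kdr, Flt1, Tek and 3 starts of Egfl7). Other motifs were searched on both strands. The GATA core AGATAA was found in the Tek window, and in 11.2% of all windows. The SOX core ACAAT was found in Tek and Clec4g, and in 31.0% of all windows. The E-box CAGATG was found in Kdr, and in 17.2% of all windows. The forkhead core TGTTTA was in no member window and in 13.4% of all windows.

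The libraries held 11175843 to 21167602 reads, and 3 reads, taken as the floor of detection, corresponded to 0.142 to 0.268 RPM (reads of a gene scaled to a fixed library total). The gates were checked against fixed marker lists. The 9 Kupffer cell genes summed to 6938 to 19868 RPM in KC libraries and to 21.3 to 599.8 RPM in splenic libraries, and the 9 macrophage and monocyte genes summed to at least 4989 RPM in every library. Library sex moved with genotype in the liver. All 6 hepatic KO libraries had at most 0.154 RPM of Xist and 150 to 291 RPM of 4 Y-linked genes, the 6 hepatic WT Ly6C libraries had 321 to 539 RPM of Xist and 0 to 52.0 RPM of the Y-linked genes, and the KC libraries had at least 647 RPM of Xist. Genotype and sex therefore cannot be told apart in the liver. One KO spleen Ly6C-low library, replicate 2, also had Xist at 0.781 RPM and the Y-linked genes at 301 RPM. Spleens were minced between glass slides and livers were processed in a heated dissociator, so organ and dissociation cannot be told apart either.

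The 8 members other than Flt1 and Pecam1 had one pattern. They did not exceed 4.12 RPM in any splenic library, were above 1 RPM in every liver library, and had their highest group mean in KCs. In a sorted bulk library, fewer cells of a type and less RNA per cell cannot be told apart.

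Stab2, the gene most used to mark sinusoidal endothelium, had no read in 10 of 13 splenic libraries, and the other splenic libraries had 1, 3 and 4 reads (0.047, 0.208 and 0.28 RPM). In the WT liver it measured 2.01, 3.50 and 5.10 RPM in Ly6C-high cells and 4.72, 16.3 and 16.5 RPM in Ly6C-low cells. In the KO liver it measured 21.6, 129 and 222 RPM in Ly6C-high cells and 9.16, 15.6 and 56.5 RPM in Ly6C-low cells. The KC libraries held 289, 494, 519.8 and 199.7 RPM. Every liver library was above every splenic library, the WT Ly6C-high libraries were the lowest of all hepatic libraries apart from 1 WT Ly6C-low library among them, and the third KO Ly6C-high library reached into the KC range.

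Clec4g, the sinusoidal lectin, had at most 1.32 RPM in spleen. It had 22.3 to 36.9 RPM in WT liver Ly6C-high cells, 51.0 to 143 RPM in WT liver Ly6C-low cells, and 99.4, 447 and 689.9 RPM in KO liver Ly6C-high cells. KO liver Ly6C-low cells held 48.1, 84.8 and 656 RPM. The KC libraries, at 877, 1232, 2662 and 1149.6 RPM, were above every other library. The spread within the KO liver groups was wide, with replicate 3 far above replicates 1 and 2 in Ly6C-low cells.

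Oit3 had at most 0.142 RPM in any splenic library, which is at most 3 reads. In the liver it was at 4.63 to 13.7 RPM in WT Ly6C-high, 7.78 to 50.1 RPM in WT Ly6C-low, 29.9 to 182 RPM in KO Ly6C-high, 9.55 to 87.7 RPM in KO Ly6C-low and 331 to 951 RPM in KC libraries. Lyve1, the hyaluronan receptor, was above the floor in 11 of 13 splenic libraries but did not exceed 4.05 RPM there. It was at 3.94, 5.01 and 7.51 RPM in WT liver Ly6C-high cells, at 33.4, 52.7 and 39.9 RPM in WT liver Ly6C-low cells and at 213 to 611 RPM in KCs. Lyve1 was the member with the largest log2 difference between the 2 WT hepatic Ly6C groups.

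Egfl7 was low but above the floor in 12 of 13 splenic libraries, with 0 to 1.49 RPM. In the WT liver it measured 2.47, 3.25 and 2.95 RPM in Ly6C-high cells and 5.46, 9.33 and 15.3 RPM in Ly6C-low cells. In the KO liver it measured 19.8, 63.4 and 112 RPM in Ly6C-high cells and 7.16, 9.49 and 33.6 RPM in Ly6C-low cells, and the KC libraries held 147, 229, 299 and 145.6 RPM. The order of its hepatic group means was that of Stab2, and each KC library was above each other library.

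Of the receptors of VEGF and angiopoietins, Kdr held 0.137 to 4.12 RPM in spleen and was highest there in WT Ly6C-high (2.15, 2.78 and 2.80 RPM) and KO Ly6C-low (2.85, 4.12, 0.922 and 1.27 RPM) cells. In the WT liver it measured 3.24, 13.4 and 3.40 RPM in Ly6C-high cells and 9.69, 8.19 and 27.02 RPM in Ly6C-low cells. In the KO liver it measured 31.6, 217 and 335 RPM in Ly6C-high cells and 21.2, 55.0 and 140.5 RPM in Ly6C-low cells, and KC libraries held 264 to 403 RPM. Kdr in KO liver Ly6C-high cells overlapped the KC range.

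Tek had no read in 6 of 13 splenic libraries and at most 0.49 RPM, and its phosphatase Ptprb had no read in 10 of 13 and at most 0.142 RPM. Tek was at 1.31 to 4.76 RPM in WT liver Ly6C-high cells, 13.97, 68.7 and 129 RPM in KO liver Ly6C-high cells and 88.1 to 222 RPM in KCs. Ptprb was at 7.18 to 13.4 RPM in WT liver Ly6C-high cells, 36.9, 284 and 502 RPM in KO liver Ly6C-high cells and 461 to 1193 RPM in KCs. For both genes each liver library lay above each splenic library.

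Flt1, the VEGF receptor also known from monocytes, had a different pattern, because it was well above the floor in spleen. WT spleen Ly6C-high cells held 24.0, 19.7 and 26.96 RPM and WT spleen Ly6C-low cells 51.2, 47.8 and 36.6 RPM. KO spleen Ly6C-high cells held 7.32, 8.38 and 7.60 RPM, and KO spleen Ly6C-low cells 2.70, 2.98, 4.82 and 4.51 RPM. WT liver Ly6C-high and Ly6C-low cells, at 39.2 to 50.4 and 27.5 to 32.4 RPM, lay in the span of the WT splenic libraries. KO liver Ly6C-low cells held 5.77, 8.79 and 27.6 RPM, KO liver Ly6C-high cells 46.1, 71.9 and 123 RPM, and KCs 73.1 to 208 RPM.

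Pecam1 was not highest in KCs. Its highest levels were in the KO Ly6C-low cells of both organs, with 1456, 2195, 1904 and 1975 RPM in spleen and 996, 1838 and 3016 RPM in liver. KC libraries held 318, 455, 821 and 396 RPM. WT Ly6C-low cells held 266 to 324 RPM in spleen and 148 to 153 RPM in liver, and WT Ly6C-high cells 43.1 to 45.0 and 38.1 to 40.9 RPM. Only 1 of 16 liver libraries exceeded the highest splenic library.

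**Figure D1:**
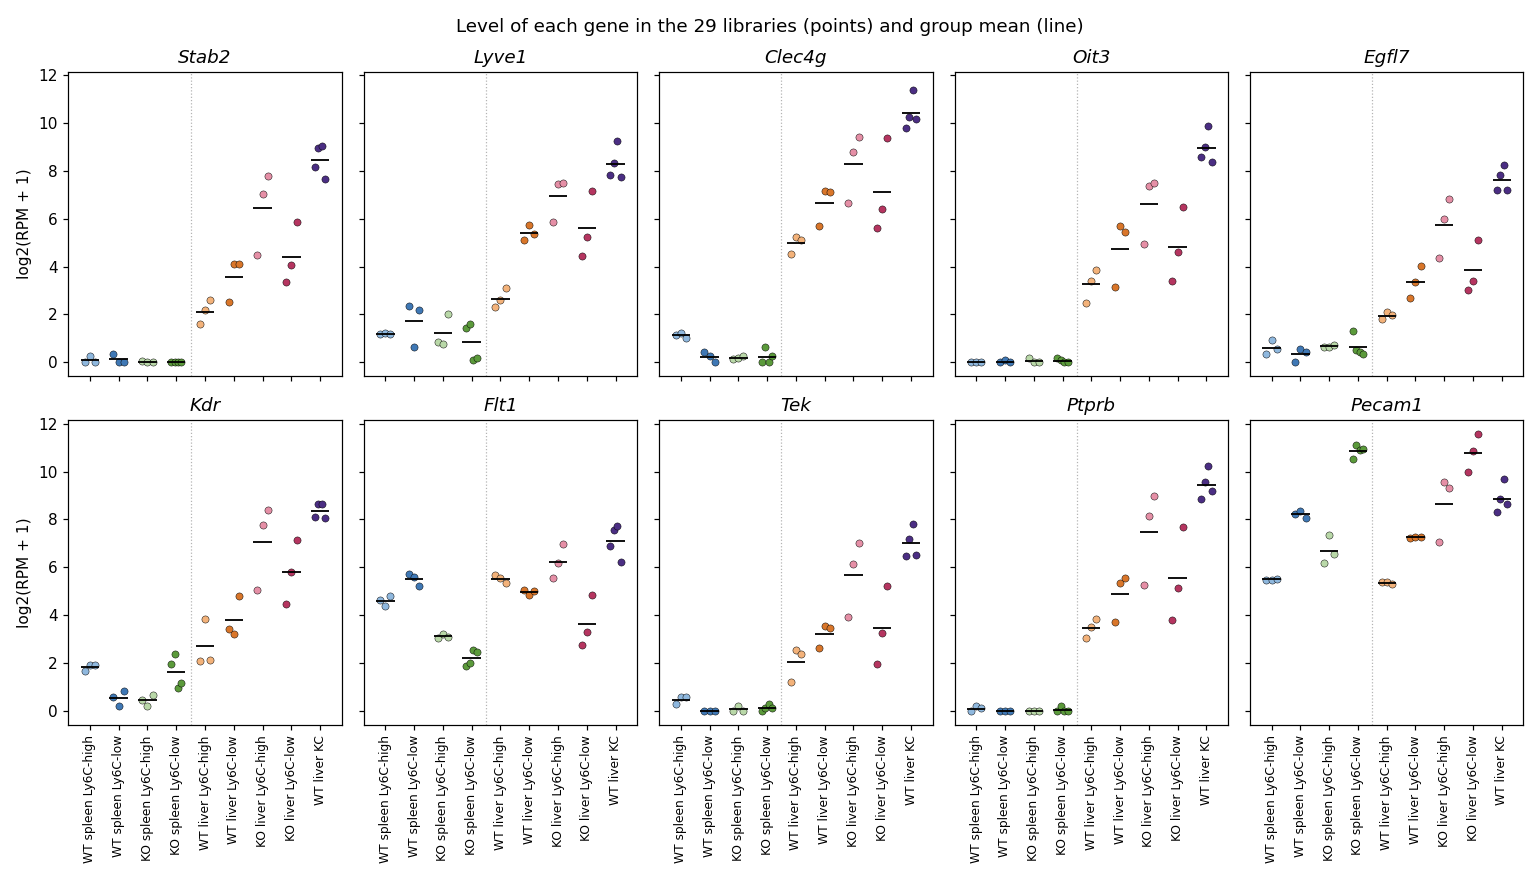
Level of each of the 10 genes as log2(RPM + 1) in each of the 29 libraries (points, grouped along the x axis, splenic groups left of the dotted line), with the mean of the log2 values per group as a line. Stab2, Lyve1, Clec4g, Oit3, Egfl7, Kdr, Tek and Ptprb sit near 0 in spleen and are highest in WT KC, whereas Flt1 is well above 0 in WT spleen and Pecam1 is highest in KO Ly6C-low cells of both organs.

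The comparison of liver with spleen asks how far the same gate differs between the organs. Differences were tested with limma on log2(scaled RPM + 1), where scaled RPM are RPM divided by relative log expression factors, and a gene was called at more than 1.5-fold with an adjusted p (Benjamini-Hochberg, over all genes tested) below 0.05. Over the 25 Ly6C libraries, with subset and genotype held in the fit, 9 of the 10 members were called higher in liver, where 17.3% of all 13012 tested genes were. The median log2 difference of the members was 3.91, against 0.07 over all tested genes. A gene was tested where at least 3 of the compared libraries held at least 1 RPM. Egfl7, Oit3, Ptprb, Stab2 and Tek had fewer than 3 splenic libraries at 1 RPM, so they needed liver libraries to pass and had to differ, and the counts of members are descriptions for that reason.

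The scaling bears on how many genes lie on either side. In RPM as deposited, the median log2 difference over all tested genes moved from -0.04 to -0.30 for WT Ly6C-high cells (liver minus spleen), from 0.05 to 0.67 for KCs minus WT liver Ly6C-high cells and from 0.01 to 0.31 for KO minus WT liver Ly6C-high cells. Called genes split into 1824 higher and 2211 lower with scaling and 1162 and 3413 without it in the first of these, 3674 and 3171 against 6169 and 1335 in the second, and 1717 and 1634 against 2661 and 905 in the third. The split moved from 3759 and 2822 to 4716 and 1930 for KCs minus WT spleen Ly6C-high, from 4102 and 2828 to 5462 and 1542 for KCs minus WT spleen Ly6C-low and from 3254 and 2999 to 5477 and 1385 for KCs minus WT liver Ly6C-low. It moved from 1016 and 1295 to 733 and 1620 for genotype in spleen Ly6C-high cells, from 1451 and 2079 to 1060 and 2494 for subset in WT spleen, from 612 and 566 to 789 and 418 for subset in WT liver, and from 2005 and 1818 to 3148 and 841 for the interaction in Ly6C-high cells. With TMM factors the pooled comparison of organs moved from 2257 and 1188 to 1907 and 1647. Of the members, only Pecam1 in WT Ly6C-high cells changed direction with the scaling.

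Clec4g had the largest difference of the 10 between liver and spleen in that fit (6.40 ± 0.43 on the log2 scale, SE, adjusted p = 2.3e-10), followed by Ptprb (5.34 ± 0.45). Ptprb reached 1 RPM in no splenic library and entered the test through the liver alone, so its difference is a description and its p-value is left out. Flt1 had the smallest called difference (1.31 ± 0.30, adjusted p = 0.0015). Pecam1 did not pass (0.28 ± 0.29, adjusted p = 0.44). Because the splenic values are near 0, the log2 differences of the other genes depend on the added value of 1 and understate the ratio of the levels.

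Gate by gate, 8 of 10 members were called higher in liver in WT Ly6C-high cells (17.1% of all tested genes), and 5 of the 10 needed the hepatic libraries to pass the filter. Clec4g was 26.2 times as high in liver as in spleen (31.0 ± 7.67 RPM, SD, n = 3, against 1.18 ± 0.13 RPM, adjusted p = 8.9e-07), and Lyve1 was 4.30 times as high (adjusted p = 0.00032). Oit3, with no read in the 3 splenic libraries, was at least 44.6 times as high, set against 3 reads per library. Stab2 was 49.7 times as high in pooled RPM (125 reads in liver against 3 in spleen), with an exact 95% counting interval of 16.6 to 244 that covers counting error only. Kdr was above every splenic library in all 3 hepatic libraries but did not pass (1.07 ± 0.41 on the log2 scale, adjusted p = 0.052). Pecam1 differed by less than 1.5-fold: its 3 hepatic RPM values lay below the 3 splenic ones, whereas its difference after scaling was 0.13 ± 0.11 (adjusted p = 0.34).

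In WT Ly6C-low cells, 8 members were called higher (18.8% of all tested genes) and 1 lower (15.3%), and 8 of the 10 needed the hepatic libraries to pass the filter. Clec4g averaged 0.19 ± 0.18 RPM in spleen and 111 ± 51.8 RPM in liver (SD, n = 3 each), and Stab2 had 4 reads in all in spleen and 428 reads in liver. The member called lower was Pecam1 (297 ± 29.1 RPM in spleen, 151 ± 3.02 RPM in liver, adjusted p = 0.00027), a call that was lost when all 29 libraries shared 1 fit. Flt1 was also lower in each hepatic library than in each splenic library (30.4 ± 2.59 against 45.2 ± 7.66 RPM), with an adjusted p = 0.025, but the difference of -0.51 on the log2 scale was smaller than 1.5-fold.

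In the KO gates organ and sex cannot be told apart in Ly6C-high cells, where all 3 hepatic libraries carried Y-linked transcripts and the 3 splenic libraries had 353 to 447 RPM of Xist and at most 0.047 RPM of the Y-linked genes, and in Ly6C-low cells 1 of the 4 splenic libraries carried Y-linked transcripts as the 3 hepatic ones did. In KO Ly6C-high cells 9 members were called higher in liver (15.2% of all tested genes), and 8 of the 10 needed the hepatic libraries to pass the filter. Called members included all 8 endothelial genes other than Flt1 and Pecam1, and Flt1, which was 10.4 times as high (80.4 ± 39.3 against 7.77 ± 0.55 RPM, SD, n = 3, adjusted p = 0.00038). Ptprb had no read in the 3 KO spleen Ly6C-high libraries and was at least 1909.8 times as high in liver, set against 3 reads per library. Pecam1 was 4.73 times as high on average, but the groups overlapped and the test missed the threshold (adjusted p = 0.051). In KO Ly6C-low cells 9 members were called higher (18.5% of all tested genes), 7 of the 10 needed the hepatic libraries to pass the filter, and Pecam1 was at 1950 ± 1014 RPM in liver and 1883 ± 310.2 RPM in spleen (adjusted p = 0.93). Flt1 was 3.75 times as high in KO liver Ly6C-low cells (adjusted p = 0.046). That call was lost when 6 of the 7 libraries were left out in turn (adjusted p between 0.067 and 0.10), including when KO liver replicate 3 was left out.

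**Figure D2:**
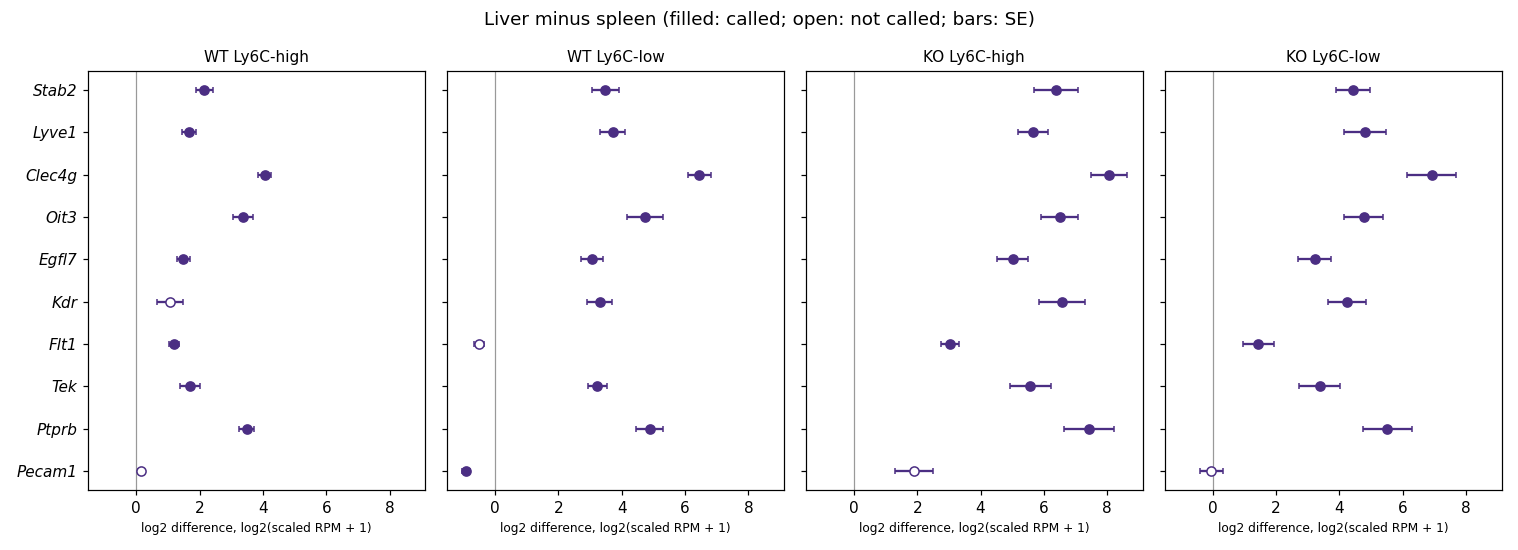
Log2 difference between liver and spleen on log2(scaled RPM + 1) for each gene (y axis) in the 4 gates (panels), with the SE as a bar and filled points for called differences. The differences of Stab2, Lyve1, Clec4g, Oit3, Egfl7, Kdr, Tek and Ptprb are larger in the KO Ly6C-high panel than in the WT Ly6C-high panel, and Pecam1 is near 0 or below it in 3 of the 4 panels.

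KCs were compared with the splenic and hepatic WT Ly6C groups, to set the resident macrophage gate beside the Ly6C gates. All 10 members were called higher in KCs than in WT spleen Ly6C-high cells (30.5% of all tested genes), and 9 were called higher than in WT spleen Ly6C-low cells (33.5%), where Pecam1 was the exception (497 ± 223 against 297 ± 29.1 RPM, adjusted p = 0.52). In these comparisons 5 and 8 members needed the KC libraries to pass the filter. All 10 were called higher in KCs than in WT liver Ly6C-high cells (29.3%) and than in WT liver Ly6C-low cells (26%), and there each member was above 1 RPM in both groups. Stab2 differed most from WT liver Ly6C-high cells (5.73 ± 0.34 on the log2 scale, adjusted p = 1.2e-07). It averaged 376 ± 156 RPM in the 4 KC libraries and 3.54 ± 1.55 RPM in the 3 WT liver Ly6C-high libraries. Flt1 differed least from WT liver Ly6C-high cells (0.90 ± 0.30, adjusted p = 0.022), and this call was lost without KC replicate 2 or WT liver Ly6C-high replicate 2 or 3 (adjusted p between 0.060 and 0.082). Pecam1 differed least from WT liver Ly6C-low cells (1.03 ± 0.27, adjusted p = 0.0080). These comparisons share the KC libraries.

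Within the liver, the 8 genes could be set beside one another with each gene given as a percent of its KC mean. The median of the 8 was 0.967%, 1.67% and 1.99% in the WT Ly6C-high libraries and 2.78%, 6.52% and 7.64% in the WT Ly6C-low libraries. It was 8.09%, 36.2% and 56.8% in the KO Ly6C-high libraries and 2.84%, 5.18% and 27.1% in the KO Ly6C-low libraries. In each hepatic Ly6C library the highest of the 8 genes was 2.18 to 7.73 times the lowest on this scale. By group means each of the 8 genes had the order KC, KO Ly6C-high, KO Ly6C-low, WT Ly6C-low and WT Ly6C-high. The place of KO Ly6C-low above WT Ly6C-low rested on KO replicate 3: without it the KO mean was below the WT mean for 7 of the 8 genes (Oit3 at 16.4 against 33.5 RPM, for example) and above it for Kdr, and with all libraries the KO median was below the WT median for 6 of the 8. The KO Ly6C-high and KO Ly6C-low ranges overlapped for all 8, as did the KO Ly6C-low and WT Ly6C-low ranges. KCs lay above all KO Ly6C-high libraries for Clec4g, Egfl7, Lyve1 and Oit3 and overlapped them for Stab2, Kdr, Tek and Ptprb. KO liver Ly6C-high replicate 1 stood below replicates 2 and 3 for all 8 genes, and KO liver Ly6C-low replicate 3 above replicates 1 and 2. Sums of other lists moved with these libraries. KO Ly6C-high replicate 1 had the highest macrophage and monocyte sum of its group (32099 RPM, against 22939 and 22324 RPM), and KO Ly6C-low replicate 3 had the lowest Kupffer cell sum of its group (6649.9 RPM, against 11695 and 7971 RPM) and the lowest macrophage and monocyte sum (7514 RPM). KC replicate 3 stood apart from the other KC libraries, with the highest sum of the 8 genes (6861 RPM, against 2745 to 4096 RPM), the highest hepatocyte sum (5567 RPM, against 1601 to 1823 RPM) and the lowest Kupffer cell sum (6938 RPM, against 17899.6 to 19868 RPM). The part of these in the endothelial values was not tested.

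Marker lists of other cells did not all follow this order. The 8 genes summed to 33.6% of their KC mean in KO liver Ly6C-high cells, 14.05% in KO Ly6C-low, 6.35% in WT Ly6C-low and 1.74% in WT Ly6C-high cells. Without KO Ly6C-low replicate 3 the value of that group was 4.79%, below that of WT Ly6C-low. With KC replicate 3 left out of the KC mean, the 4 values in the order given were 42.9%, 17.9%, 8.09% and 2.22%. The 8 hepatocyte genes in the table summed to 2.03%, 1.79%, 5.08% and 1.66% of their KC mean in the same groups. They ranged from 1601 to 5567 RPM in KC libraries, 12.997 to 189 RPM in the hepatic Ly6C libraries and 0.07 to 1.75 RPM in spleen, where the albumin gene Alb did not exceed 0.049 RPM in any library. The 9 Kupffer cell genes summed to 3.32%, 54.6%, 1.15% and 0.373%, and Clec4f, a lectin that defines KCs, averaged 4197 RPM in KCs, 3.13 RPM in KO Ly6C-high and 44.7 RPM in KO Ly6C-low cells. The 10 genes of stellate cells and fibroblasts summed to 9.75%, 1.75%, 3.83% and 3.34%, and the 5 cholangiocyte genes to 9.84%, 1.12%, 17.6% and 10.04%. The 6 platelet genes summed to 33.1%, 36.8%, 78.5% and 4.74% of their KC mean, and to 11.0 to 66.1 RPM in spleen. The 9 macrophage and monocyte genes summed to 287%, 116%, 184% and 355%. The 11 immediate early genes, which respond to cell handling, summed to 216%, 71.3%, 1254% and 1305% of their KC mean. Their part in the endothelial values was likewise not tested.

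**Figure D3:**
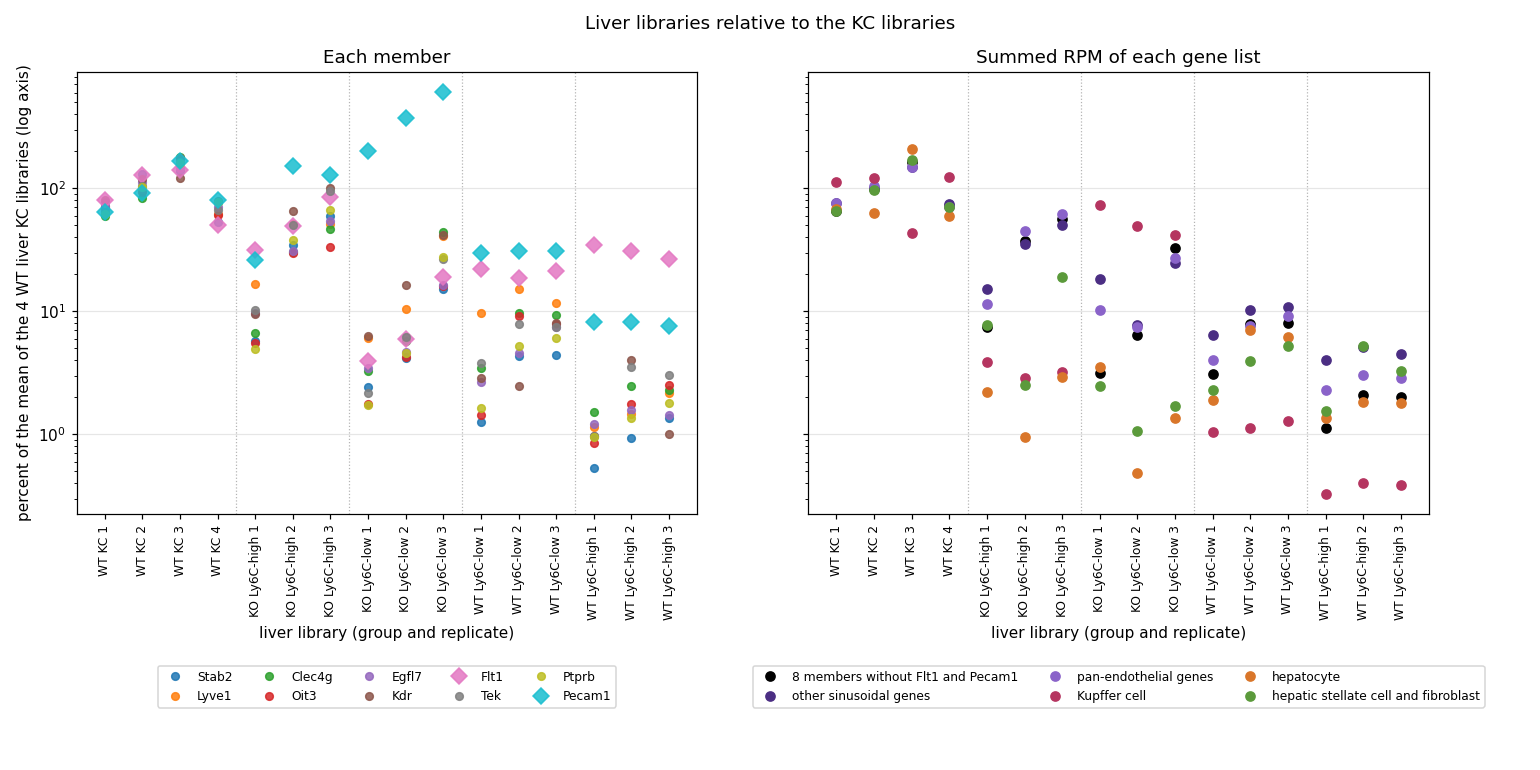
Left, level of each of the 10 genes in each of the 16 liver libraries as a percent of its mean over the 4 WT liver KC libraries (log axis). Right, the same for the summed RPM of gene lists. In the 3 KO Ly6C-high libraries the 8 endothelial genes other than Flt1 and Pecam1, and the other sinusoidal and pan-endothelial lists, lie above the hepatocyte and Kupffer cell lists. The stellate cell and fibroblast list lies among the 8 genes in KO Ly6C-high replicate 1 and below them in replicates 2 and 3. In the 3 KO Ly6C-low libraries the Kupffer cell list lies above the other 5 lists shown.

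The comparison of genotypes asks which members differed between Rnaset2-/- and WT cells of the same gate. In liver Ly6C-high cells 9 of 10 members were called higher in KO (15.7% of all tested genes), with each KO library above each WT library. The share of all tested genes whose groups do not overlap was counted in no comparison, so such separations are descriptions. Stab2 was 35.2 times as high (124 ± 100.4 against 3.54 ± 1.55 RPM, SD, n = 3, adjusted p = 0.0055). Kdr was 29.1 times as high (194 ± 153 against 6.69 ± 5.84 RPM, adjusted p = 0.0086), Ptprb 26.8 times (adjusted p = 0.011) and Lyve1 24.9 times (137 ± 68.3 against 5.49 ± 1.84 RPM, adjusted p = 0.00073). Pecam1 was 12.8 times as high (509 ± 332 against 39.9 ± 1.55 RPM, adjusted p = 0.0061). Flt1 was the member not called (80.4 ± 39.3 against 45.0 ± 5.62 RPM, adjusted p = 0.31). Without KO replicate 1, the lowest of its group, the log2 difference of Stab2 went from 4.04 to 4.95, and without KO replicate 3, the highest, it went to 3.41 (adjusted p = 0.017). Flt1 was called without KO replicate 1 (0.68 on the log2 scale, adjusted p = 0.034). With every library left out in turn 9 or 10 members were called, counts given without the share of all tested genes in those fits. In the same comparison 0 of 8 hepatocyte genes and 4 of 8 tested Kupffer cell genes were called higher in KO, and 0 and 1 lower. All 3 tested platelet genes were called higher and 10 of 11 immediate early genes lower, and the part of these in the endothelial values was not tested. These values carry the sex difference given above.

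In liver Ly6C-low cells 2 members were called higher in KO (20.2% of all tested genes) and 1 lower (22.5%). Pecam1 was 12.9 times as high (1950 ± 1014 against 151 ± 3.02 RPM, adjusted p = 0.00022) and stayed called with each library left out. Kdr was 4.83 times as high (72.3 ± 61.5 against 15.0 ± 10.5 RPM, adjusted p = 0.044) and Flt1 was lower (14.1 ± 11.8 against 30.4 ± 2.59 RPM, adjusted p = 0.047), but for both the groups overlapped. Kdr lost its call without WT replicate 1 or 2 or KO replicate 2 or 3 (adjusted p between 0.094 and 0.15), and Flt1 without any 1 WT replicate or KO replicate 1 or 2 (adjusted p between 0.097 and 0.14). Flt1 also lost its call with TMM factors, DESeq2, edgeR and no filter, and Kdr with no filter. The other 7 members overlapped between genotypes, with log2 differences from 0.03 (Oit3) to 0.79 (Stab2).

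In spleen Ly6C-high cells 5 members could be tested, of which 1 was called higher in KO (9.77% of all tested genes) and 3 lower (12.5%). Pecam1 was 2.45 times as high (108 ± 46.5 against 44.0 ± 0.91 RPM, adjusted p = 0.0022). Flt1 was at 7.77 ± 0.55 RPM against 23.6 ± 3.65 RPM in WT (a log2 difference of -1.37 ± 0.15, adjusted p = 0.00011). Kdr and Clec4g were called lower too, at 0.37 ± 0.21 against 2.58 ± 0.37 RPM and 0.14 ± 0.05 against 1.18 ± 0.13 RPM, and both had passed the filter through the WT libraries alone. In the single fit of all 29 libraries Flt1 was the 1 member called here. In spleen Ly6C-low cells 4 members could be tested. Pecam1 was called higher (4.05% of all tested genes), with a mean of 1883 ± 310.2 RPM in KO and 297 ± 29.1 RPM in WT, and Flt1 was called lower (4.3%), with a mean of 3.75 ± 1.07 RPM in KO and 45.2 ± 7.66 RPM in WT. Kdr had each of the 4 KO libraries above the WT range but did not pass (1.07 ± 0.36 on the log2 scale, adjusted p = 0.091). It had passed the filter through the KO libraries alone, the lowest of which held 13 reads. For Pecam1 and Flt1 the groups did not overlap, and both calls held without the KO replicate that carried Y-linked transcripts.

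**Figure D4:**
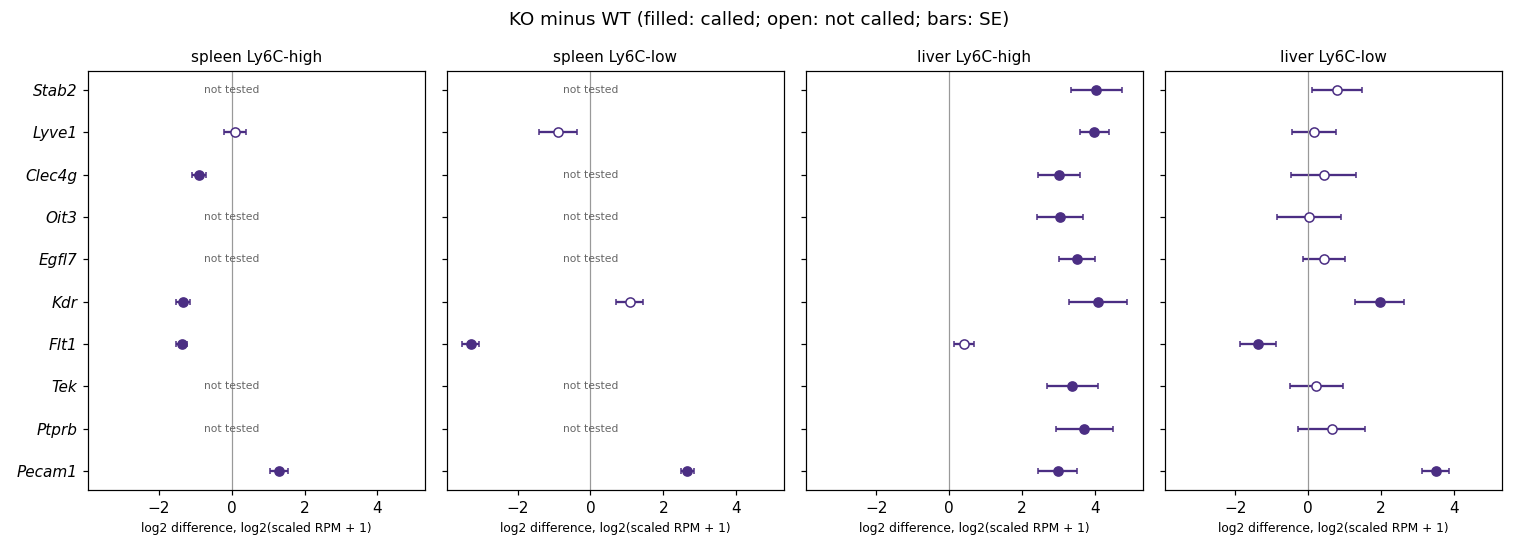
Log2 difference between KO and WT on log2(scaled RPM + 1) for each gene (y axis) in the 4 gates (panels), with the SE as a bar, filled points for called differences and text where the filter left a gene untested. In liver Ly6C-high cells 9 of 10 genes are called higher in KO, in liver Ly6C-low cells 3 of 10 genes are called, and in spleen Flt1 is called lower and Pecam1 higher in both gates.

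Whether the genotype difference itself differed between the organs was tested as an interaction. In Ly6C-high cells 9 members had a larger KO minus WT difference in liver than in spleen (17.6% of all tested genes were called so). Of these, Stab2, Oit3, Egfl7, Tek and Ptprb were below 1 RPM in each Ly6C-high splenic library of both genotypes. They needed the hepatic libraries to pass the filter. Their interaction largely restates the hepatic difference (4.16 against 4.04 on the log2 scale for Stab2). With edgeR on the recovered reads Oit3, Ptprb and Stab2 lost this call, and with DESeq2 Oit3 did. The largest was that of Kdr (5.44 ± 0.93 on the log2 scale, adjusted p = 0.00093), which was lower in KO spleen and higher in KO liver. Flt1 was among the 9 (1.80 ± 0.34, adjusted p = 0.0017), and Pecam1 was not called (1.71 ± 0.67, adjusted p = 0.066). In Ly6C-low cells only Flt1 was called (1.91 ± 0.57, adjusted p = 0.026, where 12.1% of all tested genes were called larger), and that call was lost without WT spleen replicate 1 or 2 or WT liver replicate 2 (adjusted p between 0.055 and 0.061). The interactions carry the same confounding with sex.

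Ly6C-low and Ly6C-high cells of WT mice were also compared. In spleen, of 5 members tested, Pecam1 and Flt1 were called higher in Ly6C-low cells (13.8% of all tested genes) and Kdr and Clec4g lower (19.8%), the last pair with no Ly6C-low library at 1 RPM. Pecam1 differed by 2.87 ± 0.09 on the log2 scale (adjusted p = 1.5e-08) and was the 1 member still called when all 29 libraries shared 1 fit. In liver 4 members were called higher in Ly6C-low cells (5.24%) and 1 lower (4.84%). Lyve1 was at 42.0 ± 9.82 against 5.49 ± 1.84 RPM (2.64 ± 0.25 on the log2 scale, adjusted p = 0.00022) and Pecam1 at 151 ± 3.02 against 39.9 ± 1.55 RPM (1.79 ± 0.13, adjusted p = 7.4e-05). Clec4g and Egfl7 were called higher as well (adjusted p = 0.025 and 0.035) and Flt1 lower (adjusted p = 0.040). Those 3 calls each were lost in at least 4 of the 6 fits that left out 1 library, Flt1 in all 6. In the full fits Flt1 was higher in the Ly6C-low gate of WT spleen and lower in that of WT liver.

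Other genes of the same cell type and pathway were taken from lists fixed with earlier results of these data known. In each splenic group 3 to 6 of 16 other sinusoidal and 1 to 7 of 20 pan-endothelial genes had no read. The other sinusoidal genes still summed to 121 to 222 RPM in splenic libraries, where the 8 members summed to 1.44 to 7.45 RPM. In KO liver Ly6C-low replicates 1 and 2 they summed to 1116 and 474 RPM, whereas the 8 members summed to 132 and 267 RPM. Which cells gave the reads of the listed genes was not tested. How many listed genes needed the hepatic libraries to pass the filter, and so had to differ between the organs, was not counted. The counts and adjusted p between organs for these lists, and for the VEGF and angiopoietin list below, are descriptions for that reason. Of 16 other sinusoidal genes, 14 could be tested over the 25 Ly6C libraries, and 12 were called higher in liver (17.3% of all tested genes were) and none lower, with a median log2 difference of 3.19. Stab1, the second stabilin, differed most (5.43 ± 0.33, adjusted p = 8.5e-11), followed by the orphan receptor gene Gpr182 (4.57 ± 0.39, adjusted p = 7.8e-09). Of 20 pan-endothelial genes, 19 could be tested and 15 were called higher, with a median of 2.38, led by Cdh5 (VE-cadherin, 5.22 ± 0.45, adjusted p = 8.3e-09), which KCs are known to express too, and Gpihbp1 (4.92 ± 0.39, adjusted p = 2.0e-09), the capillary anchor of lipoprotein lipase. Cdh5 is on the Kupffer cell list as well, so its values also enter the sums and counts of that list. In liver Ly6C-high cells, 12 of 14 other sinusoidal genes and 18 of 19 pan-endothelial genes were called higher in KO (15.7% of all tested genes) and none lower. In liver Ly6C-low cells 2 of 14 and 2 of 19 were called higher, a share below that of all tested genes (20.2%), and 1 gene of the other sinusoidal list, Fcgr2b, lower (22.5%).

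Of the 12 ligands and co-receptors of the VEGF and angiopoietin systems, 9 could be tested over the Ly6C libraries and 5 were called higher in liver, beside 17.3% of all tested genes. The leading 3 were receptors or co-receptors, namely Flt4 (VEGFR3, 4.06 ± 0.45 on the log2 scale, adjusted p = 3.3e-07), Tie1 (2.45 ± 0.35, adjusted p = 1.0e-05) and Nrp2 (1.92 ± 0.28, adjusted p = 1.3e-05). Flt4 and Nrp1 are also on the list of other sinusoidal genes and Tie1 on the pan-endothelial list, so the lists are not independent. In liver Ly6C-high cells 4 of 8 were called higher in KO (15.7% of all tested genes), and the ligand Vegfa was called lower (10.2 RPM on average against 46.9 RPM, -2.41 ± 0.49 on the log2 scale, adjusted p = 0.0096). In liver Ly6C-low cells 3 of 8 were called higher (20.2% of all tested genes), and the ligand Vegfc was called lower (2.36 against 30.0 RPM, -3.27 ± 0.26, adjusted p = 6.7e-05). Angpt1, the ligand that activates TIE2, averaged 4.38 RPM in KCs and at most 1.75 RPM in the hepatic Ly6C groups.

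The genes most like each member were found by Pearson correlation of log2(scaled RPM + 1) over the 29 libraries among 13980 genes. These r are descriptions, since the libraries fall into groups and share organ, gate and genotype. The 10 genes most like Stab2 were Cyp4b1 (r = 0.996), Gpr182, Ldb2, Ushbp1, Fmo1, Cyyr1, Egfl7, Lama4, Tek and Nr2f2 (r = 0.992), of which Egfl7 and Tek are members and Cyp4b1 and Gpr182 were on the list of other sinusoidal genes. Gpr182 was also the gene most like Oit3 and Ptprb (r = 0.997 each). Lyve1 was most like Gpihbp1 (r = 0.975), Clec4g most like Ptprb (r = 0.990), Egfl7 most like Ldb2 (r = 0.994), Kdr most like Sparc (r = 0.979) and Tek most like Fmo1 (r = 0.994). Flt1 reached no more than r = 0.849, with Gm19582, Clcn6 and Gm3934 as its nearest genes, and Pecam1 was nearest to Adamdec1 (r = 0.929), Crebl2 and Fcgr4, none of them a member or on the endothelial lists.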

How the data were processed

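RNA of sorted cells was amplified by the authors with an Ion AmpliSeq mouse panel, which holds 1 amplicon a gene, and sequenced on an Ion Proton. Per the labels, reads were counted with the AmpliSeqRNA plug-in against mm10. The authors deposited 1 table of RPM (reads scaled to a fixed library total) with 29 libraries and 23930 genes. Each RPM value was a whole number of reads within 0.1 reads (100.0% of values), so reads were recovered from it; their median was 13027220 per library, and intervals and floors cover counting error only. No replicate pair agreed within sampling noise (mean chi-square per gene at least 6.17, where 1 is sampling noise).

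Relative log expression factors were computed over the compared libraries and divided out of the RPM. A gene needed 1 RPM in 3 or more of those libraries, and was tested on log2(value + 1) with limma 3.58.1 (lmFit, eBayes with trend, two-sided) in R 4.3.3, with Benjamini-Hochberg adjustment over all tested genes. The fits were also run on simulated counts. Those had a common spread for all genes and changed genes well above the floor. They do not cover members near 0 in spleen or the spread between these replicates. In all, 17 comparisons were run. Alternatives were an added value of 0.1, no filter, RPM as deposited, TMM factors, 1 fit of all 29 libraries, a replicate block, DESeq2 1.42.0 and edgeR 4.0.16 on recovered reads, and leaving out each library. RPM already fix each library's total, so relative factors cannot show a change in total RNA.

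The 10 members, the gene lists and the promoter motifs were chosen with earlier results of these data known. All 10 members are named; listed genes are named where they were among the 3 called genes of largest difference per list and comparison, and by name for ligands and defining markers, which were chosen after their values were seen. Likeness was ranked over 29 libraries: 10 genes for Stab2 and 3 for each other member. Rows of Rnaset2a, Rnaset2b and the Ly6c genes were not analysed here, so the deletion and the Ly6C gate were not checked in these values.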

Additional observations from a re-analysis of the deposited data

Results flagged for a closer look

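The genotype difference differed between the organs for 9 members in Ly6C-high cells, by the interaction test of KO minus WT in liver against spleen. The log2 differences were 4.16 for Stab2, 3.94 for Lyve1, 3.93 for Clec4g, 3.04 for Oit3, 3.47 for Egfl7, 5.44 for Kdr, 1.80 for Flt1, 3.81 for Tek and 3.84 for Ptprb. All 3 hepatic KO libraries were above all 3 hepatic WT libraries for these genes apart from Flt1. The share of all genes so separated was not counted. Stab2, Oit3, Egfl7, Tek and Ptprb were below 1 RPM in each Ly6C-high splenic library of both genotypes, so for them the interaction largely restates the hepatic difference. In Ly6C-low cells the difference between organs was called for Flt1 (1.91), which was lower in KO cells of both organs and by more in spleen. In liver, all of these values carry the sex difference between the KO and WT libraries.

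Among 20 sets of 4 libraries (10 members in WT KC and in KO spleen Ly6C-low), 2 had a library far from the other 3. For normally spread values chance gives about 1 in 20. That rate does not hold for sets at a few reads, where 1 library with reads beside 3 with none is always flagged. Replicate 1 of KO spleen Ly6C-low held 1.49 RPM of Egfl7 (21 reads, against 4 to 6 reads in the others), and replicate 2 held 0.142 RPM of Ptprb, which is 2 reads against 0.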

How the results depend on the processing

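Of 120 calls on members, 103 held under each of 8 other settings: an added value of 0.1, no filter, RPM as deposited, TMM factors, 1 fit of all 29 libraries, a replicate block, DESeq2 and edgeR. Many of these calls are on members near 0 in spleen that needed hepatic libraries to pass the filter, and the comparisons share libraries. The share of all called genes that held was not counted. Counts of members under other settings are given here without the share of all tested genes called under them. They therefore do not show whether the members alone gained or lost calls. Pecam1 changed direction between liver and spleen, never past the threshold: to -0.14 with RPM as deposited in WT Ly6C-high cells, and in KO Ly6C-low cells to 0.0056 with the replicate block, 0.094 with DESeq2 and 0.071 with edgeR. In 1 fit of all 29 libraries the members called fell from 4 to 1 for genotype in spleen Ly6C-high cells and for subset in WT spleen, and from 5 to 2 for subset in WT liver. Without a filter they fell from 3 to 1 for genotype in liver Ly6C-low cells and from 5 to 2 for subset in WT liver, which rose to 8 with the replicate block and with DESeq2; the cause was not tested. Whether the replicate number pairs the samples is not known, and correlations over so few libraries cannot decide it. Same-numbered libraries correlated by -0.19 to 0.60 in their deviations from the group means. In no comparison did all pairs exceed 0.1, though those of liver and spleen in WT Ly6C-low cells ranged from 0.097 to 0.39.

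Leaving out 1 library, with the filter applied again or (chosen after seeing the data) with the genes of the full fit kept, gave 3 to 9 members called between organs in WT Ly6C-high cells, 2 to 10 in WT Ly6C-low, 2 to 10 in KO Ly6C-high and 3 to 9 in KO Ly6C-low cells. The low counts come from the filter, which dropped members with too few libraries at 1 RPM; with the genes kept, the counts were 8 to 9, 9 to 10, 9 to 10 and 8 to 9. For genotype the ranges were 2 to 4 in spleen Ly6C-high and 1 to 2 in liver Ly6C-low cells, for subset 2 to 5 in spleen and 2 to 7 in liver, and for the interaction in Ly6C-low cells 0 to 2. All these counts are descriptions, given without the share of all tested genes called in each fit. Uncalled differences that changed sign were, for genotype in liver Ly6C-low cells, Clec4g (-0.70 to 1.201), Egfl7 (-0.20 to 0.87), Lyve1 (-0.63 to 0.75), Oit3 (-0.81 to 0.76), Ptprb (-0.44 to 1.53) and Tek (-0.66 to 0.99). The others were Lyve1 for genotype in spleen Ly6C-high cells (-0.32 to 0.31), and Pecam1 between organs in KO Ly6C-low cells (-0.46 to 0.37) and between KCs and WT spleen Ly6C-low cells (-0.052 to 0.39). Differences of genes at a few reads in spleen are limited by depth.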
